A study of Mus musculus with 7 samples.

Results

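Sox8, Sox9 and Sox10 are the 3 genes of the SoxE group of transcription factors, and they were taken by name from the 49315 gene rows of the deposited count tables. All 3 were found once each in every library, and all 3 passed the filter on low counts, which kept 16616 genes. They were compared between oligodendroglia of mouse brain with the genotype Sox9-wt, called control here (3 libraries), and oligodendroglia with the genotype Sox9-tg, which overexpressed Sox9 (4 libraries). By the title of the series these were NG2 glia from early postnatal life. The sources used here give neither the promoter or insert of the transgene nor the strain, the age in days or any sorting step. The sample titles number the libraries as biological replicates without saying whether each came from its own animal, litter or culture. The p-values therefore set the group difference against the spread among these libraries only, and may not extend to other animals.

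SoxE proteins bind DNA through a high-mobility-group domain, share a dimerisation domain just before it, and recognise the same short sequence, so that one member can occupy sites of another. In the oligodendrocyte lineage Sox9 acts early, in the specification of progenitors from neural stem cells. Sox10 is kept throughout the lineage and drives myelin genes together with Myrf, while Sox8 is expressed beside both and is known mainly for overlapping, partly redundant functions. In other tissues the same genes act in cartilage (Sox9), in the testis (Sox9 and Sox8) and in the neural crest with its melanocytes and Schwann cells (Sox9 and Sox10).

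Libraries held between 15768472 and 30507326 gene counts, and Sox9-tg replicate 3 was the shallowest. Levels in CPM are counts per library total, with totals adjusted by TMM, a scaling that assumes most genes unchanged. A value after ± is the SD within a group (3 control or 4 Sox9-tg libraries), and a log2 fold change is the Sox9-tg level minus that of control. Adjusted p-values are those of the quasi-likelihood test in edgeR, Benjamini-Hochberg adjusted over 16616 genes, with a threshold of 0.05. Over all genes tested the median log2 fold change was -0.01, and 13.5% of genes passed, 7.69% as higher and 5.86% as lower in Sox9-tg. Summed levels of 10 NG2 glia markers were 4310 to 5337 CPM in control and 9559 to 12779 CPM in Sox9-tg libraries, with 8 of the 10 called higher. Those of 10 oligodendrocyte markers, which include Sox10 target genes, were 161 to 310 and 860 to 5117 CPM, with 7 called higher. Those of 10 astrocyte markers were 2419 to 4382 and 1636 to 2374 CPM, with 4 called lower, those of 10 radial glia and neural stem cell markers 2951 to 3955 and 1926 to 2762 CPM, with 6 called lower, and those of 10 neuronal markers 2620 to 4337 and 1623 to 3289 CPM, with 4 called lower. No marker was at 0 in every library, the part of such shifts in the values below was not tested, and in bulk RNA fewer cells of a type and less RNA per cell cannot be told apart.

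Sox9 and Sox10 rose in Sox9-tg cells, and Sox8 did not pass the test. Sox9 (ENSMUSG00000000567, GRCm38 chromosome 11, 112782224 to 112787760, plus strand) is the gene that Sox9-tg cells overexpressed by their labels, so its level checks the labels. It stood at 239, 353 and 293 CPM in control replicates 1 to 3 and at 2207, 2741, 3597 and 3115 CPM in Sox9-tg replicates 1 to 4. The lowest Sox9-tg library lay far above the highest control library. The means were 295 ± 57.0 and 2915 ± 588 CPM, a 9.88-fold difference (95% interval 6.77 to 14.4), with a log2 fold change of 3.31, an SE of 0.24 and an adjusted p of 0.000181. The counts give a single value for Sox9, how far transgene transcripts are counted in it was not tested, and the annotation gives Sox9 a single transcript of 3 exons.

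Sox10 (ENSMUSG00000033006, chromosome 15, 79154908 to 79165240, minus strand), the lineage factor of oligodendroglia, stood at 105, 171 and 146 CPM in control and at 458, 783, 1000.2 and 792 CPM in Sox9-tg libraries. All 4 Sox9-tg libraries were above all 3 control libraries, as for Sox9. This kind of separation, without overlap and higher in Sox9-tg, was met by 13.1% of the genes tested. The means were 141 ± 33.2 and 758 ± 224 CPM, 5.38-fold apart (95% interval 3.42 to 8.47), and the log2 fold change was 2.43 (SE 0.29, adjusted p = 0.00122). With any single library left out, the log2 fold change of Sox10 was between 2.27 and 2.60 and that of Sox9 between 3.19 and 3.46, each past the threshold in every case.

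Sox8 (ENSMUSG00000024176, chromosome 17, 25565892 to 25570686, minus strand) stood at 237, 261 and 242 CPM in control and at 195, 222, 296 and 272 CPM in Sox9-tg libraries. Sox9-tg replicates 1 and 2 were below every control library and replicates 3 and 4 above every one, so the groups overlapped. Their means were 247 ± 12.8 and 246 ± 46.0 CPM. The ratio of the groups was 0.998, with a 95% interval of 0.777 to 1.28, and the adjusted p was 0.995. Of the genes tested, 99.3% had a larger change in either direction, against 0.644% for Sox9 and 1.64% for Sox10. The relative spread of Sox8 was 5.19% of the mean in control and 18.7% in Sox9-tg libraries, while that of Sox9 was 19.3% and 20.2% and that of Sox10 23.5% and 29.5%.

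The Sox8 count has a limit of its own at the start of the gene. Exons of an antisense RNA, 2810468N07Rik, cover 329 of the 3118 exon bases of Sox8 (10.6%), and the sources used here do not say whether counting used strand, so reads of the shared stretch cannot be assigned with certainty. The level of 2810468N07Rik was 27.0 ± 5.44 CPM in control libraries and 44.4 ± 16.8 CPM in those of Sox9-tg, a log2 fold change of 0.72 with an adjusted p of 0.191, and without Sox9-tg replicate 1 its adjusted p was 0.00971. The start of Sox8 is shown because it holds part of that overlap. In the sequence, from RefSeq on GRCm38.p6 at chr17:25570637-25570936 on the minus strand, lower case marks the 250 bases before the start, and capitals mark the 50 exon bases, which also lie within 2810468N07Rik:

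Sox8 promoter: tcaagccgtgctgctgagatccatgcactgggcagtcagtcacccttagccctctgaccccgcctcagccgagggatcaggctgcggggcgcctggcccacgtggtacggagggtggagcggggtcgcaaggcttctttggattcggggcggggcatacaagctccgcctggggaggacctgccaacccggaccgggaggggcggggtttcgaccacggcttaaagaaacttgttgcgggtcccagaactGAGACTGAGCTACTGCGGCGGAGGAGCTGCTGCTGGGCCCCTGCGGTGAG

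Of the 3 members, only Sox8 was matched in the RefSeq promoter table. Both strands of its window were searched for ACAAAG and ACAATG, the hexamers of the common Sox binding sequence. Neither occurred in these 300 bases. Among 32851 mouse promoter windows of the same length, 18.7% held the first, 12.6% the second and 28.6% at least one of them.

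**Figure D1:**
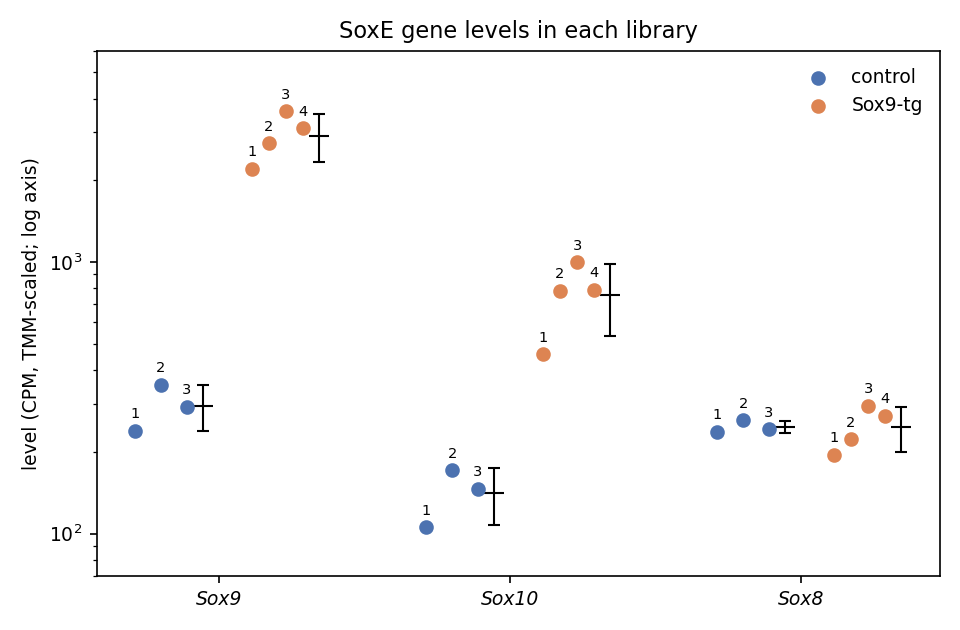
Level of Sox9, Sox10 and Sox8 in CPM on a log axis, one numbered point per library, with the group mean and SD as a bar beside the points. Sox9 and Sox10 lie higher in all 4 Sox9-tg libraries than in all 3 control libraries, while Sox8 lies between 195 and 296 CPM throughout.

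The order of the 3 genes differed between the groups. Levels of different genes were compared per length, as counts per kilobase of exon scaled to the same total over all genes, with 4135 exon bases for Sox9, 3051 for Sox10 and 3118 for Sox8. For Sox9 this length is that of the endogenous gene, and the sources used here do not give the length of a transgene transcript. In control the per-length levels were 243 ± 11.8 for Sox8, 219 ± 40.4 for Sox9 and 142 ± 33.0 for Sox10. Sox8 and Sox9 did not differ beyond their spread there, and in control replicate 2 Sox9 (253) was above Sox8 (248). In Sox9-tg cells the per-length levels were 2098 ± 623 for Sox9, 740 ± 274 for Sox10 and 235 ± 67.5 for Sox8. That order held in each of the 4 Sox9-tg libraries.

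Ranked by per-length level among 21734 protein-coding genes, Sox9 was between 362nd and 695th in control and between 10th and 26th in Sox9-tg libraries. Sox10 moved from between 670th and 1334th to between 55th and 119th. Sox8 lay between 375th and 467th in control and between 342nd and 525th in Sox9-tg libraries. Only Sox8 thus had overlapping ranks among the 3.

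The sum of the 3 per-length levels was 507, 668 and 633 in control and 2098, 2515, 4236 and 3444 in Sox9-tg libraries. Sox9 made up 34.3%, 37.9% and 36.1% of that sum in control and 71.5%, 66.9%, 67.3% and 68.5% in Sox9-tg libraries. Sox10 held nearly the same share in both groups, 23.3% ± 2.39 and 23.7% ± 2.61. The share of Sox8 was 45.1%, 37.2% and 39.5% in control and 8.37%, 7.20%, 7.34% and 7.92% in Sox9-tg libraries. Sox8 had the smallest share in all 4 Sox9-tg libraries, while in control its per-length level and that of Sox9 did not differ beyond their spread. The control order turns without the correction for length: in CPM the mean control share of Sox9 was 43.0% and that of Sox8 36.5%.

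**Figure D2:**
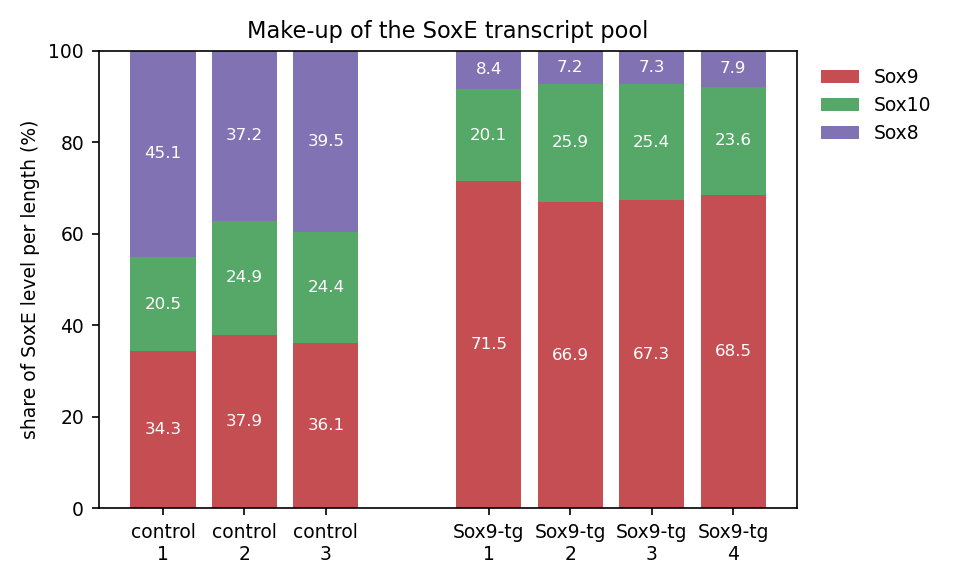
Share of Sox9, Sox10 and Sox8 in the sum of their per-length levels, in percent, one stacked bar per library. Sox9 covers 34.3% to 37.9% of each control bar and 66.9% to 71.5% of each Sox9-tg bar, and Sox8 shrinks to 7.20% to 8.37%.

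Ratios between genes within a library do not depend on how libraries are scaled against each other. In all, 9 such ratios of per-length counts were computed on the log2 scale, with 0.5 counts added, and tested with the exact permutation test over the 35 arrangements of the 7 libraries (two-sided, smallest possible p 0.0286, adjusted over the 9 ratios). Sox10 stood at -0.64 ± 0.09 relative to Sox9 in control and at -1.54 ± 0.21 in Sox9-tg libraries, so that Sox9 exceeded Sox10 by a wider margin in the latter. The difference was -0.90, with the exact permutation p at its smallest possible value of 0.0286 and an adjusted p of 0.0321. Sox8 relative to Sox9 was 0.17 ± 0.21 in control and -3.15 ± 0.06 in Sox9-tg libraries, a difference of -3.32 with the same p and adjusted p. Sox8 relative to Sox10 was 0.80 ± 0.29 and -1.62 ± 0.26, a difference of -2.42, again with the same p and adjusted p. Sox9 was overexpressed by design, so a ratio to Sox9 was bound to fall unless the other gene rose as much. Sox8 to Sox10 is the Sox8 to Sox9 value minus the Sox10 to Sox9 value, so it is no separate test. The adjusted p of the remaining ratios depends in part on these. With any library left out, 6 libraries could not reach the threshold, so those values are reported without a call.

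Sox10 and Sox8 were also set against 3 genes that mark oligodendroglia throughout the lineage or in its progenitors. Olig1 and Olig2 encode basic helix-loop-helix factors that define the lineage, and Pdgfra is the growth factor receptor of the progenitors. Relative to Olig2, Sox10 was at -1.55 ± 0.24 in control and -0.12 ± 0.25 in Sox9-tg libraries, 1.44 higher, and relative to Olig1 it was 1.31 higher (exact permutation p 0.0286 and adjusted p 0.0321 for both). Relative to Pdgfra, Sox10 was at 0.07 ± 0.30 and 0.75 ± 0.52. There the groups overlapped, with control libraries between -0.24 and 0.36 and Sox9-tg libraries between 0.03 and 1.22, and the difference of 0.68 did not pass (exact permutation p 0.143, adjusted p 0.143).

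Sox8 went the other way against the same genes. Its log2 ratio to Olig2 was -0.75 ± 0.10 in control and -1.74 ± 0.03 in Sox9-tg libraries, and the differences were -0.99 against Olig2, -1.11 against Olig1 and -1.74 against Pdgfra. For each of the 3 the groups did not overlap, with an exact permutation p of 0.0286 and an adjusted p of 0.0321. Each of these ratios is the Sox8 to Sox10 value plus that of Sox10 to the same gene, so none is a separate test. The reference genes were themselves higher in Sox9-tg libraries: Olig1 rose from 928 ± 105 to 2008 ± 402 CPM, Olig2 from 338 ± 41.4 to 664 ± 116 CPM and Pdgfra from 433 ± 22.6 to 1432 ± 101 CPM. Their log2 fold changes of 1.11, 0.98 and 1.72 were close in size to the Sox8 differences, while that of Sox8 itself was -0.0028. Without control replicate 3, the calls of Olig1 (adjusted p 0.059) and Olig2 (0.0605) were lost.

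**Figure D3:**
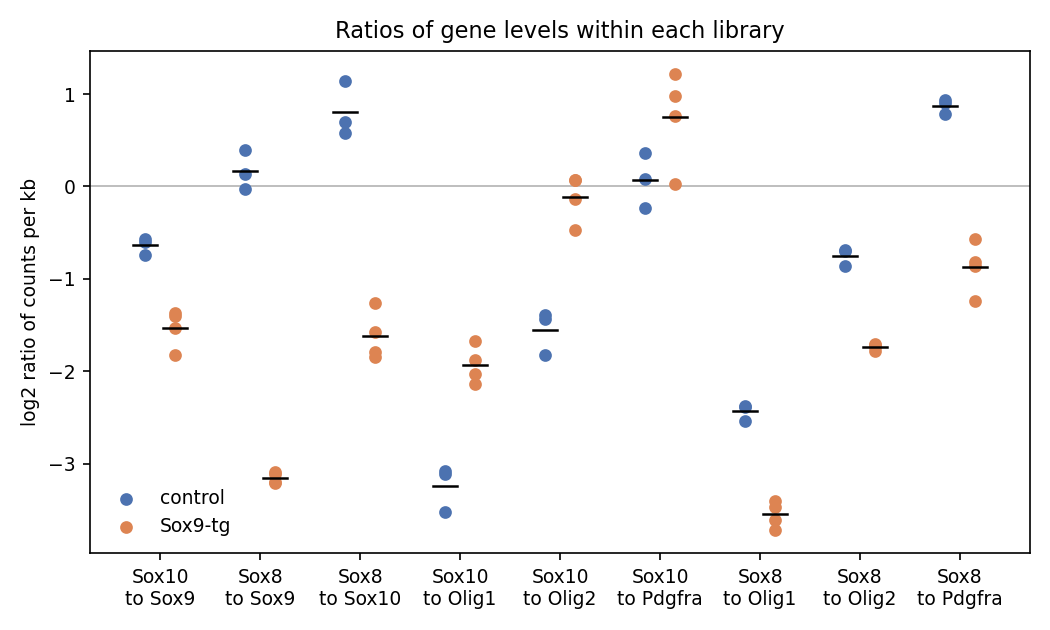
Log2 ratio of per-length counts within each library for the 9 pairs of genes, one point per library, with the group mean as a black line. Control and Sox9-tg libraries are apart in 8 of the 9 pairs and overlap for Sox10 against Pdgfra.

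Within the Sox9-tg group, Sox9, Sox10 and Sox8 ordered the libraries alike. From low to high the order was replicate 1, 2, 4 and 3 for each of the 3 genes in CPM, and in control it was replicate 1, 3 and 2 for each. Among the other 16615 genes tested, 236 (1.42%) had the same order as Sox9 in both groups, Olig2 and both SoxE genes among them. Scaled by total counts, 304 genes (1.83%) did so, still with Sox10 and Sox8, but on the per-length scale Sox8 had another order in control and 711 genes (4.28%) shared that of Sox9. The highest library, Sox9-tg replicate 3, was the one with the fewest counts. These are 7 libraries and 2 orders, given as a description.

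The genes whose pattern was most like each member were those with the smallest root mean square difference over the 7 libraries, in log2 CPM set to the control mean, among the 11507 genes that averaged 5 CPM or more in either group. Likeness to a member was measured with the same libraries that gave its fold change. For Sox9 these were Chst5 (0.217), Dct (0.222), Mitf (0.238) and Tmprss5 (0.24), against a median of 2.51 over all genes compared. Dct and Mitf belong to the pigment cell programme of the neural crest, Chst5 is a sulfotransferase and Tmprss5 a membrane serine protease. For Sox10 they were Cntn6 (0.192), Prkcq (0.198), Sstr1 (0.2) and Cyp2j6 (0.214), with a median of 1.86. Cntn6 is a cell adhesion molecule of the contactin family and Sstr1 a somatostatin receptor. For Sox8 they were Lzts2 (0.0649), Lypla2 (0.0683), Mrpl38 (0.0711) and Ppp1r13l (0.0717), against a median of 0.316. Sox10 was 53rd in likeness to Sox9, with a difference of 0.696.

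The genes around each member were read from the GENCODE M21 annotation. Just before the start of Sox10, 801 bases away on the opposite strand, lies the noncoding gene Gm10863. It stood at 1.92, 1.69 and 2.20 CPM in control and at 9.29, 13.0, 10.2 and 10.2 CPM in Sox9-tg libraries. This is a log2 fold change of 2.46 (SE 0.22, adjusted p = 0.000343), beside 2.43 for Sox10. Polr2f, which encodes a subunit shared by RNA polymerases and lies 3134 bases beyond the 3′ end of Sox10, was at 56.1 ± 0.918 and 63.7 ± 5.40 CPM (log2 fold change 0.18, adjusted p = 0.312).

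Near Sox9, the noncoding gene BC006965 lies 248 bases before the start on the opposite strand and did not pass the test, at 1.25 ± 0.270 and 2.82 ± 0.812 CPM (log2 fold change 1.17, adjusted p = 0.064). It passed with DESeq2 (0.0247) and without Sox9-tg replicate 2 (0.0325). On the other side the nearest gene tested was the long noncoding RNA 2610035D17Rik, 256135 bases past the end of Sox9. Its level was 18.3, 18.5 and 21.9 CPM in control and 206, 171, 222 and 234 CPM in Sox9-tg libraries. This distant RNA thus rose without overlap between the groups, as did 13.1% of the genes tested. Its rise was 3.41 on the log2 scale (SE 0.16, adjusted p = 8.8e-05), beside 3.31 for Sox9 itself.

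Near Sox8, the coding gene Lmf1, a lipase maturation factor of the endoplasmic reticulum, lies 8399 bases away on the 5′ side. Its mean level went from 23.7 ± 1.28 to 37.5 ± 6.60 CPM, which is 0.66 on the log2 scale (SE 0.15, adjusted p = 0.0225), and it lost that call without control replicate 1 (0.0789), control replicate 3 (0.0805), Sox9-tg replicate 3 (0.056) or Sox9-tg replicate 4 (0.0596). On the 3′ side Tekt4, a gene of ciliary tektins 89290 bases away, did not pass, with a log2 fold change of -1.34 and an adjusted p of 0.274. Its value rested on single libraries and was -0.25 when control replicate 2 was left out and -2.09 when Sox9-tg replicate 2 was.

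**Figure D4:**
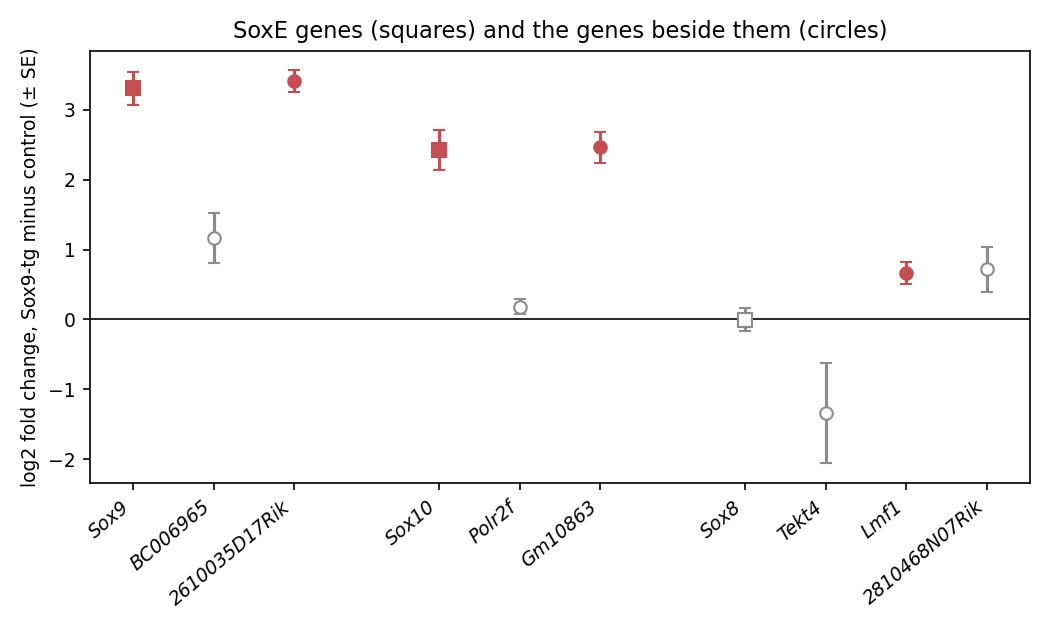
Log2 fold change, Sox9-tg minus control, with its SE as a bar, for each SoxE gene (square) and the nearest tested genes around it (circles), in red where the adjusted p was under 0.05. Gm10863 lies beside Sox10 at 2.46 and 2610035D17Rik beside Sox9 at 3.41, while Sox8 lies on the line of no difference.

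Genes known as targets of Sox10 in oligodendroglia were higher in Sox9-tg cells. Of the 10 on the list, 9 passed the filter on low counts and all 9 were called higher, beside 7.69% of all genes called higher. Erbb3, the neuregulin receptor, was at 2.38, 2.99 and 1.97 CPM in control and 59.7, 123, 98.4 and 76.6 CPM in Sox9-tg libraries. These groups were far apart, with a log2 fold change of 5.19 (SE 0.31). Myrf, the factor that works with Sox10 on myelin genes, rose from 7.97 ± 4.33 to 182 ± 97.3 CPM, the phosphatase gene Dusp15 from 15.4 ± 6.50 to 137 ± 41.8 CPM, and Gjb1, which encodes connexin 32, from 3.77 ± 0.671 to 22.2 ± 4.88 CPM. Pdgfra was also called higher, as were Mag, Mbp and Nfatc2, which are named after their values were seen. Nfatc2 was not called when control replicate 3 was left out (adjusted p 0.0572), and its log2 fold change of 2.38 became 3.02 without control replicate 2. The list shares Myrf, Mag, Mbp and other members with mature or maturing oligodendrocytes, whose summed markers moved with it as given above.

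SoxE targets in the neural crest, melanocytes and Schwann cells moved in part. Of 15 on the list, 10 were tested, 5 were called higher and 1 lower, beside 7.69% and 5.86% of all genes. The median log2 fold change was 1.54. Mitf, the master factor of pigment cells, rose from 2.74 ± 1.17 to 34.0 ± 6.31 CPM. Dct, an enzyme of melanin synthesis, rose from 2.00 ± 0.243 to 21.2 ± 3.05 CPM, and the endothelin receptor gene Ednrb from 622 ± 99.6 to 1756 ± 249 CPM. Foxd3, a neural crest factor, rose by 6.35 on the log2 scale from 0.551 ± 0.604 to 50.7 ± 20.0 CPM, and its value was 7.21 with limma-voom and 7.48 without control replicate 3. The fifth was S100b, named after its values were seen, which glia of several kinds also express and which rose by 4.27 on the log2 scale (4.88 without control replicate 2). Pou3f1, a Schwann cell factor also used by neural progenitors, fell from 39.0 ± 13.0 to 11.1 ± 2.41 CPM. Melanocyte markers summed to 5.14 to 6.70 CPM in control and 36.4 to 47.9 CPM in Sox9-tg libraries, and Schwann cell markers to 161 to 171 and 111 to 123 CPM. Of the 8 melanocyte markers, 4 were tested and 3 called higher. Tyr and Tyrp1, which are also on the target list and are named after their values were seen, were not tested. Each had at most 1 count in any library.

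Cartilage targets of Sox9 were higher. Of 15 on the list, 14 were tested and 13 were called higher, beside 7.69% of all genes called higher. The median log2 fold change was 3.77. Col2a1, whose product forms the collagen fibrils of cartilage, went up from 23.0 ± 3.48 to 758 ± 290 CPM. The collagen genes Col9a1 (6.92 ± 1.57 to 227 ± 112 CPM) and Col9a3 (86.1 ± 17.0 to 962 ± 284 CPM) rose too, as did Acan, the proteoglycan core protein, from 4.24 ± 1.63 to 121 ± 57.1 CPM. Scrg1, a gene of cartilage precursors and glia, rose from 21.4 ± 4.21 to 104 ± 26.1 CPM. Summed levels of 8 chondrocyte markers, which overlap with this list, were 26.2 to 36.4 CPM in control and 757 to 1589 CPM in Sox9-tg libraries. Col2a1 alone made up most of each sum. Of the 8 markers, 5 were tested, 4 were called higher and 0 lower, and the rest were too low to be tested. Ctgf was the tested member not called, and it is named after its values were seen, at 1.72 ± 1.22 and 3.43 ± 3.22 CPM (log2 fold change 0.98, and 0.11 without Sox9-tg replicate 2).

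The gliogenic list holds NFI factors, which work with Sox9 at the onset of gliogenesis, and genes tied to both, several of them astroglial. Of its 10 members, all tested, 0 were called higher and 1 lower by edgeR, with a median log2 fold change of -0.27. Over all genes tested 7.69% were higher and 5.86% lower, so for a list of this size these counts are near the overall shares. At an unadjusted p under 0.05 edgeR had 0 higher and 2 lower, and DESeq2 and limma-voom called 0 higher as well. Aqp4, the water channel of astrocytes, fell from 153 ± 62.4 to 29.7 ± 6.25 CPM, a log2 fold change of -2.36. Nfib, one of the NFI factors, was at 850 ± 109 and 627 ± 238 CPM and was not called (adjusted p = 0.342), except without Sox9-tg replicate 1 (0.0255). Without Sox9-tg replicate 1 the list held 2 members called lower. The summed astrocyte markers were also lower in Sox9-tg libraries, as given above.

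**Figure D5:**
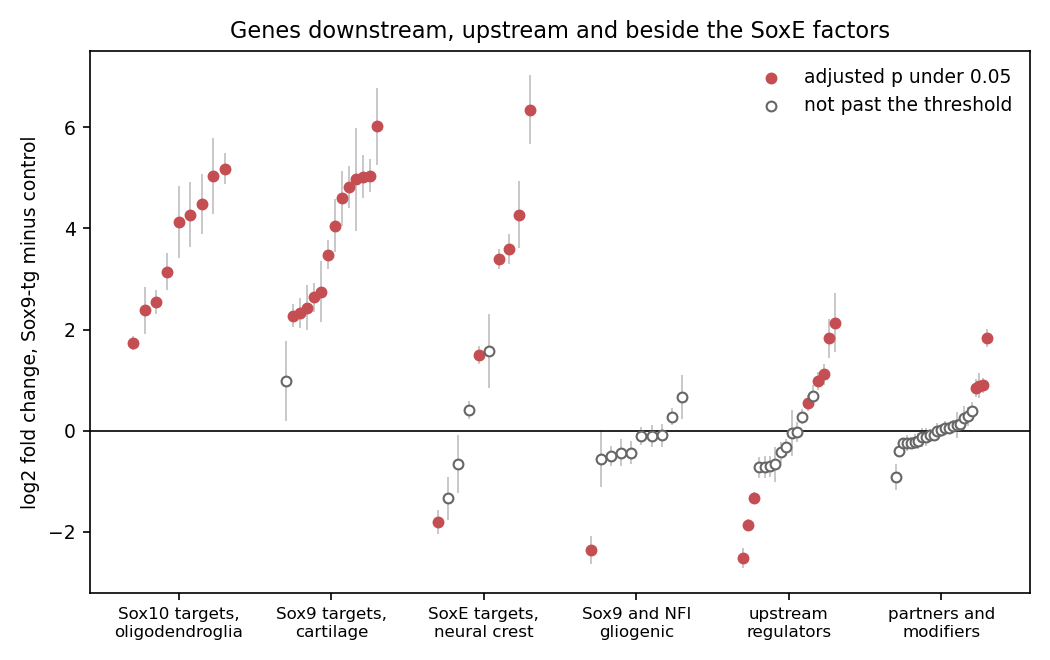
Log2 fold change, Sox9-tg minus control, with its SE as a bar, for each tested gene of 6 lists tied to SoxE function, in red where the adjusted p was under 0.05 and open where not. Sox10 targets in oligodendroglia and cartilage targets lie above the line of no difference, while the gliogenic genes scatter around their median of -0.27.

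Regulators known to act upstream of SoxE genes were mixed, with 5 of 18 called higher, 3 called lower and a median log2 fold change of -0.19. With DESeq2, 6 were called higher and 6 lower. The edgeR shares over all genes were 7.69% higher and 5.86% lower. Higher with edgeR were Olig1 and Olig2 and, named after their values were seen, Nkx2-2 (1.82), Pax7 (2.14) and Zeb2 (0.55, adjusted p = 0.0497). Pax7 was low in both groups, at 0.302 ± 0.244 and 1.26 ± 0.468 CPM, with at most 39 counts in any library. Without control replicate 3 none of the 5 was called. Without control replicate 1, Nkx2-2 (0.0531) and Zeb2 (0.0563) also lost the call, and the log2 fold change of Pax7 was 2.92. Leaving out control replicate 2 or Sox9-tg replicate 2, 3 or 4 ended the calls of Pax7 and Zeb2, and leaving out Sox9-tg replicate 1 that of Zeb2. The call of Zeb2 was also lost with upper-quartile scaling (0.0585), total counts (0.0551) and no filter (0.0529), and that of Pax7 with no filter (0.0667). Lower were Gli2, at 37.1 ± 1.09 and 10.1 ± 0.580 CPM, Gli3, at 49.0 ± 3.32 and 19.5 ± 1.65 CPM, and Egfr, at 288 ± 15.1 and 50.3 ± 13.0 CPM. Gli2 and Gli3 are the transcription factors of Hedgehog signalling, and Egfr is a growth factor receptor of neural stem cells and early progenitors. These 3 were called in every fit that left out a library.

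Among 25 partners, cofactors and modifying enzymes of SoxE proteins, 4 were called higher and 0 lower by edgeR, with a median log2 fold change of 0.00. Of all genes tested, edgeR called 7.69% higher and 5.86% lower. In a list of 25 the share called higher was above that of all genes and the share called lower below it. The gap was a few genes and was not tested. At an unadjusted p under 0.05 edgeR had 2 lower, DESeq2 called 2 of the 25 lower and limma-voom 0. Sox6 and Sox5, the SoxD factors that act beside Sox9 in cartilage and restrain Sox10 in oligodendrocyte progenitors, were both higher. Sox6 was at 127, 111 and 119 CPM in control and 485, 501, 351 and 357 CPM in Sox9-tg libraries, without overlap, with a log2 fold change of 1.83 (SE 0.17). Such a separation was met by 13.1% of the genes tested. Sox5 rose from 88.8 ± 7.49 to 158 ± 37.4 CPM and lost the call without control replicate 3 (adjusted p 0.0707). Sox13, the other SoxD gene, rose from 33.8 ± 2.96 to 62.8 ± 9.69 CPM. Nfatc1, a calcium-dependent factor that can act with Sox10, had a log2 fold change of 0.89 and an adjusted p of 0.0476, and it lost the call without control replicate 1 (0.146) or 3 (0.179) and in fits lacking Sox9-tg replicate 2 (0.0886), 3 (0.098) or 4 (0.111), with upper-quartile scaling (0.0738) and with total counts (0.0716). Its relative Nfatc4 was at 12.6 ± 4.26 and 6.69 ± 1.43 CPM, with an adjusted p of 0.0516, and passed with DESeq2 (0.0123), upper-quartile scaling (0.0478) and total counts (0.0471).

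Outside the SoxE group, 12 of 17 other Sox genes were tested, 4 were higher and 2 lower, and their median log2 fold change was 0.11. All genes tested had shares of 7.69% higher and 5.86% lower. Higher were the SoxD genes Sox5, Sox6 and Sox13, which the partner list also holds, and Sox14, at 0.276 ± 0.212 and 3.67 ± 1.29 CPM. Sox11, a factor of young neurons and progenitors, went from 1446 ± 474 to 528 ± 286 CPM (log2 fold change -1.45, adjusted p = 0.047) and lost its call when control replicate 1 or 3 was left out, or Sox9-tg replicate 2, 3 or 4. Sox7, an endothelial factor, was at 3.25 ± 2.21 and 0.552 ± 0.334 CPM, and its log2 fold change of -2.54 became -1.83 (adjusted p 0.086) without control replicate 2. It was also not called without control replicate 3 (0.064) or Sox9-tg replicate 3 (0.0719). Summed neuronal markers were lower in Sox9-tg libraries, as given above. Endothelial and pericyte markers summed to 33.3, 218 and 28.5 CPM in control replicates 1 to 3 and to 24.4 to 64.7 CPM in Sox9-tg libraries. The control excess thus lay in replicate 2, and of the 8 such markers tested 0 were called.

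In oligodendroglia Sox10 has been reported to lower Sox9 through the microRNAs miR-335 and miR-338, which lie in introns of the genes Mest and Aatk. The mature sequences, from RefSeq on GRCm38.p6, are shown because they name the link between both SoxE genes. Capitals mark the seed, bases 2 to 8, with which a microRNA pairs with its targets. The 4 arms have 4 different seeds:

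mmu-miR-338-3p: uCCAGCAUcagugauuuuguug
mmu-miR-338-5p: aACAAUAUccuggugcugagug
mmu-miR-335-5p: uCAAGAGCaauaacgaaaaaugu
mmu-miR-335-3p: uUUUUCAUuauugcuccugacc

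The arms of miR-338 lie on chromosome 11 (120014781 to 120014802 and 120014816 to 120014837, minus strand), inside Aatk. Those of miR-335 lie on chromosome 6 (30741314 to 30741336 and 30741354 to 30741375, plus strand), inside Mest. Mature microRNAs cannot be read from these counts, so only the host genes were compared. Aatk, a kinase gene, was at 50.9, 66.6 and 58.6 CPM in control and 116, 269, 211 and 182 CPM in Sox9-tg libraries. The groups did not overlap, and the log2 fold change was 1.73 (SE 0.26, adjusted p = 0.00366). Mest, an imprinted gene, was at 126, 96.1 and 108 CPM and at 162, 131, 155 and 154 CPM. These groups did not overlap either, but the log2 fold change of 0.45 (SE 0.13) missed the threshold with an adjusted p of 0.0531. Mest passed with DESeq2 (0.0154) and without Sox9-tg replicate 2 (0.0359). Of all genes tested, 13.1% were higher in Sox9-tg libraries without overlap.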

How the data were processed

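RNA sequencing of mouse oligodendroglia was compared between 3 control and 4 Sox9-tg libraries, grouped by the genotype in the labels. The authors deposited raw whole-number counts per gene for each library. The submitters' processing notes name STAR 2.5.2b, Trimmomatic 0.36, Subread 1.5.2, featureCounts, DESeq, DESeq2 and the build GRCm38. The sources used here give neither the roles of these tools nor the annotation release, the use of strand or the treatment of reads with several matches.

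Genes were filtered with filterByExpr at its defaults (minimum count 10, total 15), scaled with TMM (factors 0.965 to 1.05) and tested with edgeR 4.0.16's quasi-likelihood test in R 4.3.3, two-sided, with group as the only term. The SE is the size of the log2 fold change over the square root of F. The biological coefficient of variation was 0.265. The steps were tested on simulated data. Exon lengths and neighbours came from GENCODE M21 (48970 of 49315 gene IDs matched), and promoters and microRNAs from RefSeq. Alternatives were DESeq2 1.42.0, upper-quartile and total-count scaling, limma-voom (limma 3.58.1), no filter, a replicate block and leaving out each library. Other library orders were added after seeing the data.

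The SoxE genes and the gene lists were chosen with earlier results of these data known, and the lists are from textbook knowledge. The genes named were the 3 members, 3 reference genes, up to 5 genes of each list, the 4 most similar genes to each member and its nearest genes. Genes named beyond that rule are marked. Not every list member is reported here by name. Marker lists of microglia (108 to 759 CPM summed in control, 55.8 to 324 CPM in Sox9-tg libraries) and ependymal cells (15.8 to 126 and 13.9 to 69.2 CPM) were computed as well. In both lists the highest control library was replicate 2, and 0 markers were called.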

Additional observations from a re-analysis of the deposited data

Results flagged for a closer look

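Among the 63 named genes that were tested, 5 had a Sox9-tg library that stood apart from the other 3 by more than Dixon's 95% limit. Chance passes that limit in about 1 in 20 groups. Col2a1 was at 1193 CPM in Sox9-tg replicate 2 and at 597 to 632 CPM in the others. Acan was at 207 CPM in the same library, against 88.6 to 95.5 CPM. Tekt4, near Sox8, was at 2.09 CPM there, against 0.473 to 0.683 CPM. Nfatc2 was at 32.6 CPM there, against 14.4 to 16.1 CPM. Sox5 was at 214 CPM in Sox9-tg replicate 1, against 137 to 141 CPM. None of the SoxE genes was among them.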

How the results depend on the processing

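Sox9 kept its direction and call with log2 fold changes of 3.19 to 3.46 when each library was left out in turn, as did Sox10 (2.27 to 2.60), while Sox8 ranged from -0.095 to 0.091 and was 0.015 without the filter on low counts, never called. Correlations were 0.317, 0.613 and 0.07 for same-numbered pairs of libraries and -0.512 to 0.14 for the other pairs. Control replicates 1 and 2 were closest to the Sox9-tg replicate of their own number, and control replicate 3 to Sox9-tg replicate 1. The sample titles state no pairing, so whether the numbers pair the libraries stays unknown, and the main test used none. With the replicate block the log2 fold changes were 3.26, 2.36 and -0.07, and 1600 genes were called higher and 1509 lower, against 1278 and 973. The block also brought the adjusted p of Nfatc4 (0.00735), Mest (0.0319) and Slc1a3 (0.0295) under the threshold. Left-out libraries gave 575 to 1785 genes higher and 390 to 1384 lower. The lowest counts were without control replicate 3, but they also moved by over 1.5 times on leaving out control replicate 1 (734 higher, 527 lower), Sox9-tg replicate 3 (849 higher, 493 lower) or Sox9-tg replicate 4 (826 higher, 530 lower).

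The gliogenic list had 3 members lower with the block and 1 to 2 with a library left out. Upstream regulators had 3 higher without the filter and 0 to 5 with a library left out, and 6 lower with DESeq2, 5 with upper-quartile scaling, 5 without the filter and 7 with the block. Partners had 2 lower with DESeq2, 2 with upper-quartile and 2 with total-count scaling and 1 with the block, and with a library left out 2 to 4 higher and 0 to 1 lower. Other Sox genes had 0 to 2 lower with a library left out. Hosts of microRNAs had 2 higher with DESeq2, 2 with the block and 1 to 2 with a library left out. Genes most like Sox8 changed sign around 0: Lypla2 was -0.00010 with DESeq2, -0.051 with upper-quartile, -0.052 with total-count scaling, -0.0065 with limma-voom and -0.044 with the block, Mrpl38 -0.0045, -0.0058 and -0.0050 with upper-quartile scaling, total counts and the block, and Ppp1r13l -0.0099 with the block. With a library left out Lzts2 ranged from -0.089 to 0.057, Lypla2 from -0.065 to 0.065 and Mrpl38 from -0.0072 to 0.13. The cause of these changes was not tested.

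The differences in log2 ratio with a library left out were -0.95 to -0.80 for Sox10 against Sox9, -3.42 to -3.21 for Sox8 against Sox9 and -2.54 to -2.26 for Sox8 against Sox10. Those of Sox10 were 1.16 to 1.39 against Olig1, 1.30 to 1.55 against Olig2 and 0.52 to 0.92 against Pdgfra, and those of Sox8 -1.16 to -1.06, -1.04 to -0.96 and -1.85 to -1.62. None passed there, since 6 libraries cannot give a small enough exact permutation p. In CPM, not corrected for length, the mean shares of Sox9 were 43.0% in control and 74.6% in Sox9-tg libraries, those of Sox10 20.5% and 19.1%, and those of Sox8 36.5% and 6.32%, so that Sox9 and not Sox8 came first in control. With a library left out the per-length shares were 35.2% to 37.0% and 67.6% to 69.1% for Sox9, 22.5% to 24.6% and 23.0% to 25.0% for Sox10, and 38.4% to 42.3% and 7.49% to 7.88% for Sox8.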
